A study of Mus musculus with 18 samples.

Results

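The mitochondrial tRNA charging and modification enzymes described here were 29 nuclear genes, chosen by name, out of the 55469 gene identifiers in the deposited tables. They comprised 16 mitochondrial aminoacyl-tRNA synthetases (Aars2, Cars2, Ears2, Fars2, Hars2, Iars2, Lars2, Mars2, Nars2, Pars2, Rars2, Sars2, Tars2, Vars2, Wars2 and Yars2), 3 enzymes of the wobble uridine (Mto1, Gtpbp3 and Trmu), 7 other enzymes of the anticodon loop (Trmt5, Trit1, Cdk5rap1, Nsun3, Osgepl1, Yrdc and Qtrt1), 2 enzymes of other tRNA positions (Trmt61b and Pus1) and the initiator tRNA formyltransferase Mtfmt. All 29 were found in every table, and all 29 passed the filter on low values in every comparison. The RNA-seq libraries held total RNA of the ventral and lateral lobes of the prostate, taken from male C56NL/6N mice aged 10 or 30 weeks. Every mouse, controls included, was heterozygous for TRAMP, a transgene in which the probasin promoter drives the SV40 T antigens in prostate epithelium. KO-TRAMP mice had also lost exon 8 of Elac2 through Cre driven by a probasin promoter, so the deletion was limited to prostate epithelium while the other cells of the lobes kept the gene. A537T-TRAMP mice carried the A537T variant of ELAC2 on both alleles in all cells, and WT-TRAMP mice carried neither change. There were 3 mice for each line and age, 18 libraries in all, numbered here as in their column names: WT-TRAMP gave libraries 1 to 3 at 10 weeks and 10 to 12 at 30 weeks, A537T-TRAMP gave 4 to 6 and 13 to 15, and KO-TRAMP gave 7 to 9 and 16 to 18. The study's methods called the mice littermate-matched without naming litters.

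Mitochondria translate the few proteins encoded in their own DNA with their own set of tRNAs, which are cut out of long precursor transcripts. ELAC2 makes the cut at the trailing end of each tRNA, after which the tRNA receives its CCA tail, is modified at defined bases and is charged with its amino acid. The synthetases and modifying enzymes are made from nuclear genes and imported. Modifications at the wobble base and at the base next to the anticodon keep codon reading accurate, and formylation of the initiator methionyl-tRNA marks it for the start of translation. Several of the modifying enzymes, among them Trit1, Yrdc, Qtrt1 and Pus1, also serve tRNAs outside mitochondria.

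The promoters are shown first because the 29 genes act in 1 process and promoter letters are a property that neither their choice nor their RNA levels used. Whole windows, from 250 bases before to 50 bases after the start site in RefSeq on GRCm38.p6, were at hand for 27 of the 29 genes. The 4 windows printed here hold the NRF1 letters (Rars2, Mtfmt and, in a shorter form, Wars2) or the YY1 letters (Wars2 and Lars2), and Wars2 and Lars2 are also genes on which the results below turn. All 4 are on the plus strand and are written 5′ to 3′, with capitals marking NRF1 and YY1 letters. They lie at chr4:34614707-34615006 (Rars2), chr9:65435532-65435831 (Mtfmt), chr3:99140840-99141139 (Wars2) and chr9:123366677-123366976 (Lars2).
Rars2: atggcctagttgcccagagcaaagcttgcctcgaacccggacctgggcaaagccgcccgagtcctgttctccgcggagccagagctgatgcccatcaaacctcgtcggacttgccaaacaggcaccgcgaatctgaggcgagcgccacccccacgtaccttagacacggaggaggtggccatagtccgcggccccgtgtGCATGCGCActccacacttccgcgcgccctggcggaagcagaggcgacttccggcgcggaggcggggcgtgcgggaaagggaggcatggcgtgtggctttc
Mtfmt: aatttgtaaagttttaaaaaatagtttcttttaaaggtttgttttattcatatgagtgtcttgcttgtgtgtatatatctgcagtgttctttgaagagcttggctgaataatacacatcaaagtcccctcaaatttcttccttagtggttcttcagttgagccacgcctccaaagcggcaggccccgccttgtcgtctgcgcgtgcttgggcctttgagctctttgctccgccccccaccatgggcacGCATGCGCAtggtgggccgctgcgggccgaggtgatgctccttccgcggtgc
Wars2: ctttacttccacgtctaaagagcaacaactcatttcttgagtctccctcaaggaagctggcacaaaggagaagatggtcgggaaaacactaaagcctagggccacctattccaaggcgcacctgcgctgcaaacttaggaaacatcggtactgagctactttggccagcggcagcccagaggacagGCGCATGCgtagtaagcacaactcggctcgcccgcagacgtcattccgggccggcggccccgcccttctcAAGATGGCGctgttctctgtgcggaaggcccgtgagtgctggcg
Lars2: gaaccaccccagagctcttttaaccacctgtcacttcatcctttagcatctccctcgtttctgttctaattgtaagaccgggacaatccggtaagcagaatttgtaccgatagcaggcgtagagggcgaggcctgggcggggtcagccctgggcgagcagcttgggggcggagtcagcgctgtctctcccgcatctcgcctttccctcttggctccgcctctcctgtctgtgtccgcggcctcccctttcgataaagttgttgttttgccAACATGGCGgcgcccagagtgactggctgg

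NRF1, a transcription factor of many nuclear genes for mitochondrial proteins, recognises a palindromic GC-rich site. Searched on both strands, TGCGCATGC was present in 7.41% of the member windows (Rars2 and Mtfmt), 1.52% of all 32851 windows and 1.98% of the 21263 windows of protein-coding genes. The shorter form GCNTGCGC, which includes every match of the first, was in 33.3% of the member windows, 9.95% of all windows and 13.2% of the protein-coding ones. YY1 is a zinc finger factor whose site often lies at the start of transcription. Its letters AANATGGCG were in the windows of Wars2, Trit1, Qtrt1, Mto1, Lars2, Yars2 and Aars2, which made 25.9% of the members against 2.38% of all and 3.12% of protein-coding windows. The letters CCGGAAG of ETS factors, a family that includes GABPA, were in 33.3% of member windows, 8.86% of all and 11.6% of protein-coding windows. The E-box CACGTG was in 14.8% of member windows, 7.15% of all and 7.84% of protein-coding windows, and the GC box GGGCGG was in 63.0%, 35.7% and 46.2% of these sets. TGATGNAA, the composite site of ATF4 and C/EBP factors that switch on genes of the amino acid response, was in 0 of 27 member windows, against 3.97% of all windows and 3.60% of protein-coding ones. These matches are descriptions of letters, not of binding.

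Each of the 29 genes was detected in every library. The recovered reads came to 9380174 to 14830104 per library, and a member received between 34 and 3740 of them. Per kilobase of exon, in normalized counts of the WT-TRAMP libraries at 10 weeks (mean ± SD over 3 mice, in the table that also holds KO-TRAMP), Qtrt1, the catalytic subunit of the enzyme that inserts queuine at the wobble base, was highest at 169 ± 20.9. Lars2, the leucyl-tRNA synthetase, followed at 142 ± 11.9, and its libraries did not overlap those of Qtrt1. Trit1, which adds an isopentenyl group to the base next to the anticodon, stood at 138 ± 2.51 and overlapped Lars2. Rars2 at 116 ± 19.0, Iars2 at 110.0 ± 9.33, Pus1 at 102 ± 10.7 and Yrdc at 94.0 ± 20.6 formed the next run, in which each gene overlapped the one after it. From Trmt5 at 64.4 ± 12.3 down to Mtfmt at 37.3 ± 1.25 every neighbour in the order overlapped. The lowest levels were those of Nsun3 at 21.7 ± 2.20, Pars2 at 17.95 ± 0.85 and Wars2, the tryptophanyl-tRNA synthetase, at 12.6 ± 2.49, and these 3 did not overlap one another. The median of the 16 mitochondrial synthetases was 44.1 on this per-kilobase scale (range 12.6 to 142), against 184 (58.1 to 522) for 18 cytosolic synthetases in the same libraries. Over all groups of libraries Qtrt1 kept rank 1 or 2 and Wars2 rank 28 or 29, whereas Lars2 moved between rank 1 and rank 10.

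**Figure D1:**
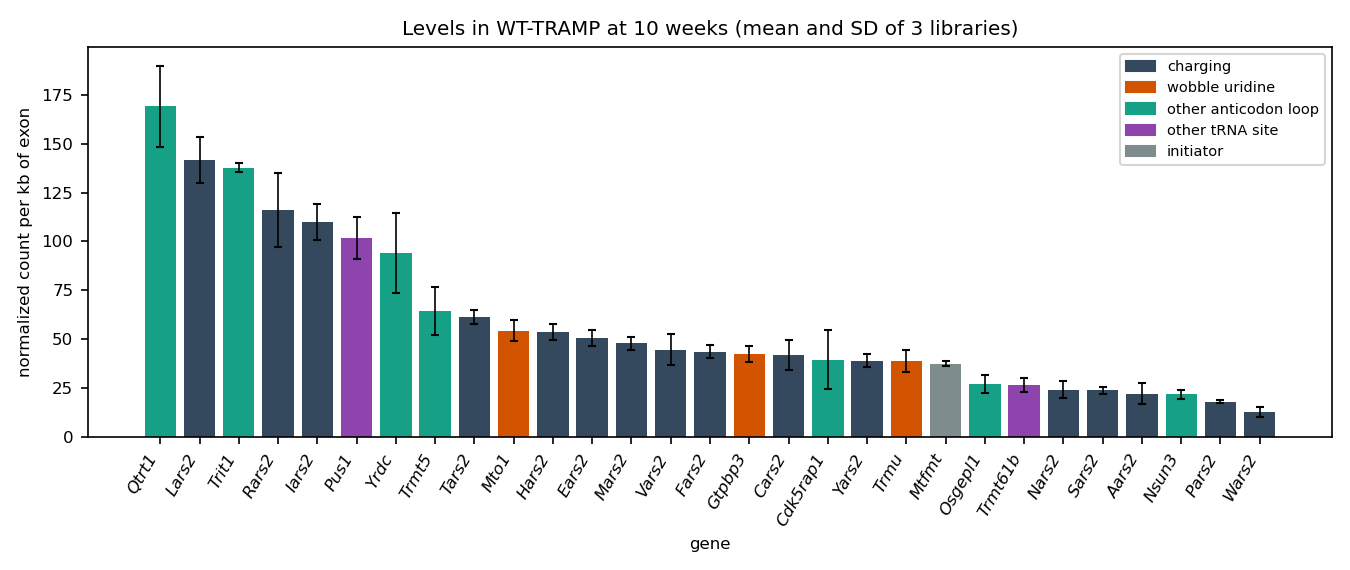
Level of each of the 29 genes in the WT-TRAMP libraries at 10 weeks, in normalized counts per kilobase of exon, as bars for the mean of 3 libraries with the SD, coloured by class. Qtrt1 at 169, Lars2 at 142 and Trit1 at 138 lead the order and Wars2 at 12.6 ends it.

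The libraries themselves differed in markers of other cells and tissues, some of them along the lines and some within a line. Luminal prostate markers were present in all of them (none of 10 at 0, summed normalized counts 21645 to 56873). Markers of seminal vesicle secretion, which prostate lobes should lack, summed at 10 weeks to 21.0 to 54.0 in WT-TRAMP libraries, 99.8 to 180136 in those of KO-TRAMP and 5025 to 1156560 in those of A537T-TRAMP. At 30 weeks the sums ran from 11.7 to 626736 without dividing the lines. Among the KO-TRAMP libraries of 30 weeks, library 16 stood apart from 17 and 18: its summed neuroendocrine markers were 32.9, with 4 of 8 at 0, against 14885 and 9316, and its mean over 20 proliferation genes was 0.36 below the WT-TRAMP mean on the log2 scale against 1.20 and 0.77 above. All 3 of these libraries had summed fibroblast markers of 13632 to 18937, against 3300 to 3844 in WT-TRAMP. In this comparison 8 of 10 luminal markers lay below the WT-TRAMP mean (median log2 fold change −0.92). Log2 means over 6 adipose markers, relative to the WT-TRAMP mean, were −4.78 to −2.10 in these libraries and −1.02 to 0.77 in the controls. For 5 skeletal muscle markers they were 1.92 to 3.32, against −0.21 to 0.31. Summed macrophage markers were 1734 to 2256, against 804 to 1025. The adipose marker Ucp1 differed by −5.74 there (limma adjusted p = 0.0432) and by −6.35 in A537T-TRAMP at 30 weeks (limma adjusted p = 0.140). Smooth muscle markers summed at 10 weeks to 4390 to 7375 in WT-TRAMP against 7861 to 12421 in KO-TRAMP, and to 3907 to 6578 against 9891 to 27180 in the table of A537T-TRAMP. The part of these other cells in the values of the members was not tested. Elac2, the targeted gene, had normalized counts of 359, 289 and 307 in WT-TRAMP and 301, 262 and 254 in KO-TRAMP at 10 weeks, and 251, 319.6 and 310.0 against 249, 267 and 251 at 30 weeks. The groups overlapped at both ages, with log2 fold changes of −0.22 (95% interval −0.54 to 0.09) and −0.19 (−0.54 to 0.16). These gene-level estimates cover all exons and all cells of the lobes and so check the loss of 1 exon in the epithelium only weakly. In A537T-TRAMP, whose variant leaves the transcript in place, the differences were −0.09 and 0.05.

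Whether loss or change of ELAC2 moved the enzymes that act on its products was asked by comparing each line with WT-TRAMP of the same age. None of the 29 members passed limma's test at an adjusted p under 0.05 in any of the 4 comparisons (lowest adjusted p 0.368), and edgeR and DESeq2 on the recovered reads also called none. The background of limma was low too. It called 0.0129% (KO-TRAMP) and 0.00648% (A537T-TRAMP) of all genes tested at the younger age, and 0.213% and 0% at the older. DESeq2 called more: 81 of 15451 and 805 of 16900 genes tested in KO-TRAMP at 10 and 30 weeks. In A537T-TRAMP it called 148 of 15438 and 165 of 16261. At an unadjusted p under 0.05 limma gave 2 members for KO-TRAMP mice of 10 weeks (background 6.64%) and 2 for those of 30 weeks (13.5%). For A537T-TRAMP mice limma gave 1 at each age (7.89% and 7.21%), which made 6 of 116 pairs of gene and comparison in all. The 95% interval of the log2 fold change lay within a 2-fold change in either direction for 100 of the 116 pairs, and for 19 of the 29 genes in all 4 comparisons. Smaller changes lie within these intervals and were not detectable with 3 mice a group. In bulk lobes fewer cells of a type and less RNA per cell cannot be told apart.

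**Figure D2:**
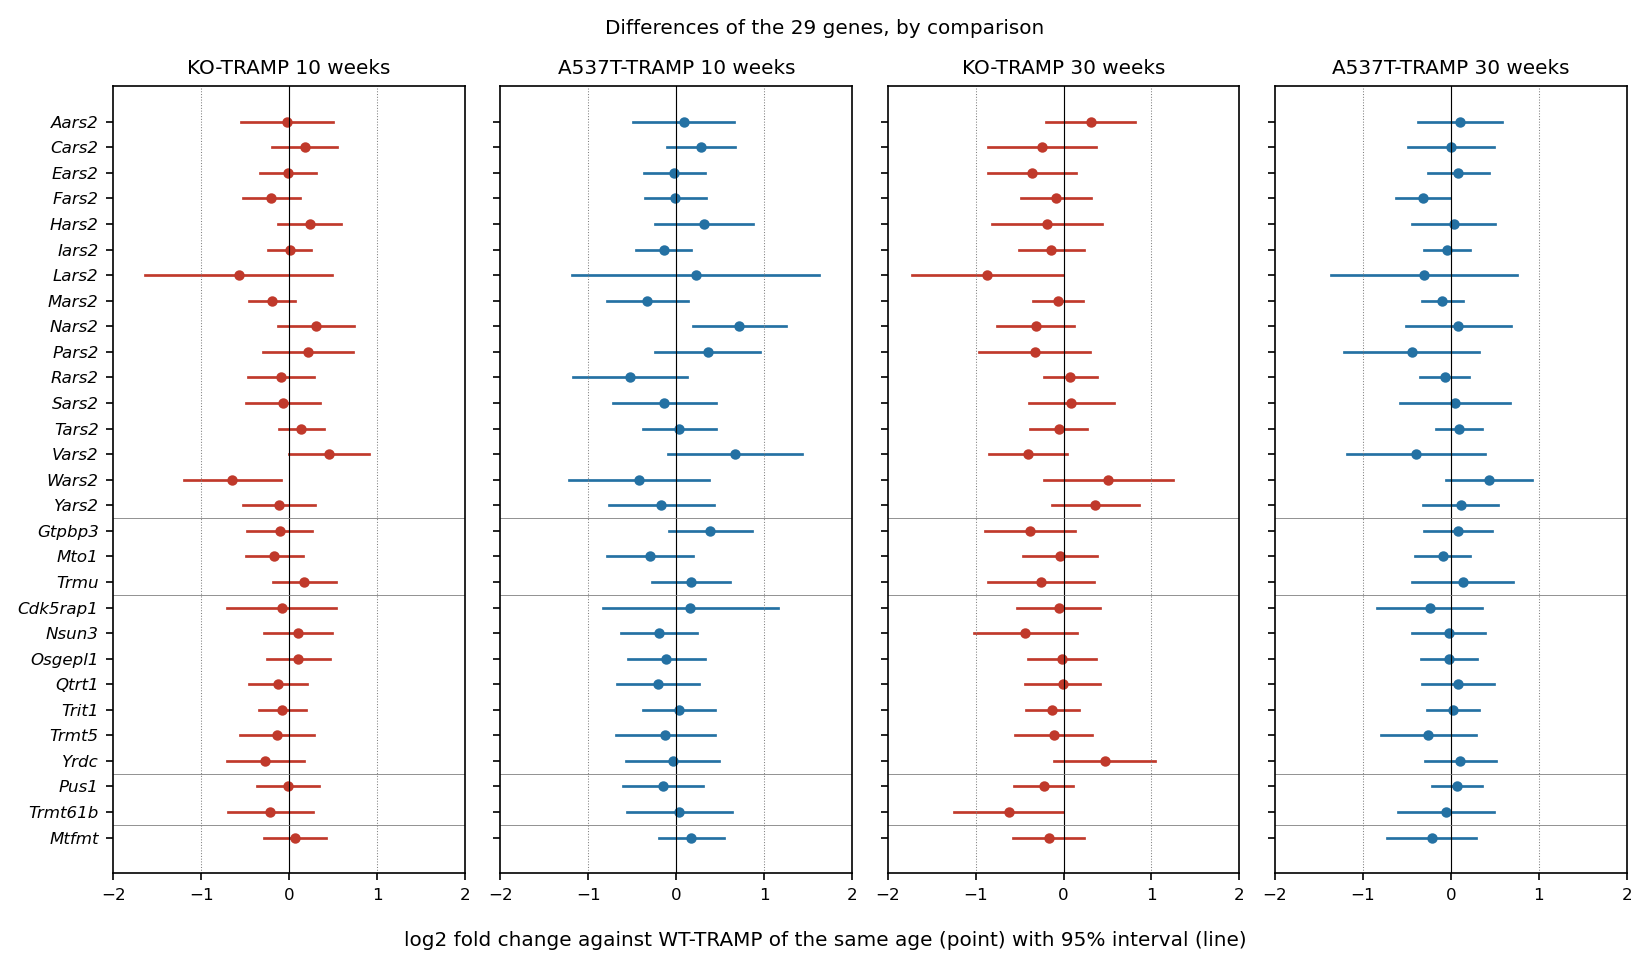
Log2 fold change of each of the 29 genes against WT-TRAMP of the same age with its 95% interval, in 4 panels for the 2 lines and 2 ages, the genes ordered by class. Most intervals cross 0, and 100 of 116 lie within a 2-fold change.

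In KO-TRAMP at 10 weeks the 29 genes lay close to WT-TRAMP, with 11 above 0 and 18 below and a median log2 fold change of −0.07, against −0.006 over all genes. Wars2 (ENSMUSG00000004233.14, chr3:99141068-99239186, plus strand) had normalized counts of 87.4, 58.7 and 79.3 in WT-TRAMP and 54.8, 41.1 and 45.9 in KO-TRAMP. It was the only member whose libraries did not overlap, all 3 KO-TRAMP values lying below every WT-TRAMP value (12.0% of all genes tested were without overlap). The difference was −0.65 on the log2 scale (SE 0.24, interval −1.20 to −0.10) and did not pass the test (limma adjusted p = 0.717). Wars2 overlaps Gm43024 and Gm42717 on its own strand. Vars2, the valyl-tRNA synthetase (ENSMUSG00000038838.15, chr17:35655634-35667592, minus strand), had 278, 194 and 259.9 in WT-TRAMP and 385, 361 and 263 in KO-TRAMP. Libraries 7 and 8 were above all controls and library 9 was among them, and the log2 fold change was 0.46 (interval from just above 0 to 0.91, limma adjusted p = 0.742). The other named synthetases differed less: Nars2 by 0.31 (−0.12 to 0.74), Hars2 by 0.24 (−0.12 to 0.59), Fars2 by −0.20 (−0.52 to 0.12) and Mars2 by −0.19 (−0.45 to 0.06), all with overlapping libraries. Of the wobble uridine enzymes 1 of 3 lay above 0, of the other anticodon loop enzymes 2 of 7, and Mtfmt differed by 0.06 (−0.29 to 0.42).

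In A537T-TRAMP at 10 weeks 14 members lay above 0 and 15 below, with a median of −0.01 against −0.008 over all genes. Nars2, the asparaginyl-tRNA synthetase (ENSMUSG00000018995.12, chr7:96951505-97064758, plus strand), had 145, 112 and 162 in WT-TRAMP and 211, 288 and 191 in A537T-TRAMP. Every A537T-TRAMP library lay above every control, a log2 fold change of 0.72 (SE 0.23, interval 0.19 to 1.24) that did not pass the test (limma adjusted p = 0.600). Gtpbp3, which works with Mto1 to place a taurinomethyl group on the wobble uridine, had 146, 132 and 159.6 against 162, 242 and 177, also without overlap (log2 fold change 0.39, interval −0.09 to 0.86). Its partner Mto1 lay on the other side of 0, at −0.30 (−0.79 to 0.19). Pars2 and Mtfmt were the remaining members without overlap, at 0.36 and 0.17, so that 4 of 29 were apart, where 13.4% of all genes tested were. Vars2 had 247, 173 and 230.3 in WT-TRAMP and 204, 411 and 471 in A537T-TRAMP, with library 4 among the controls and libraries 5 and 6 far above them. Rars2, the arginyl-tRNA synthetase, had 326, 359 and 257 against 327, 178 and 172, with library 4 again among the controls and 5 and 6 below them (log2 fold change −0.53, interval −1.18 to 0.13). Libraries 5 and 6 were also those with the highest summed seminal vesicle markers of this age, 1156560 and 135158 against 5025 in library 4; the part of these markers in the differences of Vars2 and Rars2 was not tested.

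KO-TRAMP at 30 weeks was the comparison in which the members leaned most to one side: 6 lay above 0 and 23 below, with a median of −0.13 against 0.01 over all genes, of which 50.9% were above 0. The 3 wobble uridine enzymes Trmu, Gtpbp3 and Mto1 all lay below 0 (median −0.25), as did 6 of 7 other anticodon loop enzymes (median −0.06), both enzymes of other positions (median −0.43), Mtfmt and 11 of 16 synthetases (median −0.11). The means over the 29 genes were 0.08, 0.13 and 0.18 below the WT-TRAMP mean in libraries 16, 17 and 18, against −0.08, 0.00 and 0.07 in the 3 controls, so that library 16 was no lower than control library 10. Trmt61b, which methylates an adenosine in mitochondrial tRNAs and ribosomal RNA (ENSMUSG00000085492.7, chr17:71557027-71598755, minus strand), had 68.3, 66.2 and 104 in WT-TRAMP and 54.5, 48.8 and 47.0 in KO-TRAMP. All 3 KO-TRAMP libraries lay below all controls, with a log2 fold change of −0.63 (SE 0.25, interval −1.24 to −0.01, limma adjusted p = 0.368). The annotation types this identifier as antisense and not as protein-coding, and it runs opposite to Spdya over shared bases. Pus1, a pseudouridine synthase, with 200.3, 203 and 207 against 188, 179 and 157, and Trit1, with 269.7, 310.0 and 268 against 266, 257 and 251, were the other members without overlap, 3 of 29 where 20.2% of all genes tested were apart. Both differences were small, −0.23 (−0.56 to 0.11) and −0.13 (−0.43 to 0.17).

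For Yrdc and Lars2 library 16 lay apart from libraries 17 and 18. Yrdc makes the activated threonylcarbamoyl group that Osgepl1 transfers to the base next to the anticodon of mitochondrial tRNAs (ENSMUSG00000028889.17, chr4:124850679-124855242, plus strand). It had 163, 156 and 168 in WT-TRAMP and 162, 292 and 242 in KO-TRAMP, so that library 16 lay among the controls and 17 and 18 well above. Over all 3 the log2 fold change was 0.47 (interval −0.11 to 1.04, limma adjusted p = 0.405), and without library 16 it was 0.71 (limma adjusted p = 0.0362). Lars2 (ENSMUSG00000035202.8, chr9:123366927-123462666, plus strand) had 895, 1358 and 1042 in WT-TRAMP and 927, 367 and 614 in KO-TRAMP, library 16 again lying within the controls and the others below them. Its log2 fold change was −0.87 (SE 0.35, interval −1.72 to −0.01, limma adjusted p = 0.368) with all libraries and −1.19 (limma adjusted p = 0.0404) without library 16. These were 2 of 29 members called without that library, a setting in which 18.1% of all genes tested were called. Wars2 had 61.5, 81.6 and 67.3 against 68.9, 139.9 and 102, with library 16 inside the range of the controls (log2 fold change 0.51, interval −0.22 to 1.25). Osgepl1, the partner of Yrdc, which overlaps Gm28778 on its own strand, had 198, 195 and 217 against 209, 226 and 170.2 and a log2 fold change of −0.02 (−0.41 to 0.37). Vars2 had 309, 276 and 358 against 199.6, 234 and 282, with library 18 overlapping the controls (−0.40, interval −0.84 to 0.04). The tyrosyl-tRNA synthetase Yars2 differed by 0.36 (−0.14 to 0.86). Libraries 17 and 18 were those with high neuroendocrine and proliferation genes, and the part of these genes in the differences of Yrdc and Lars2 was not tested.

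**Figure D3:**
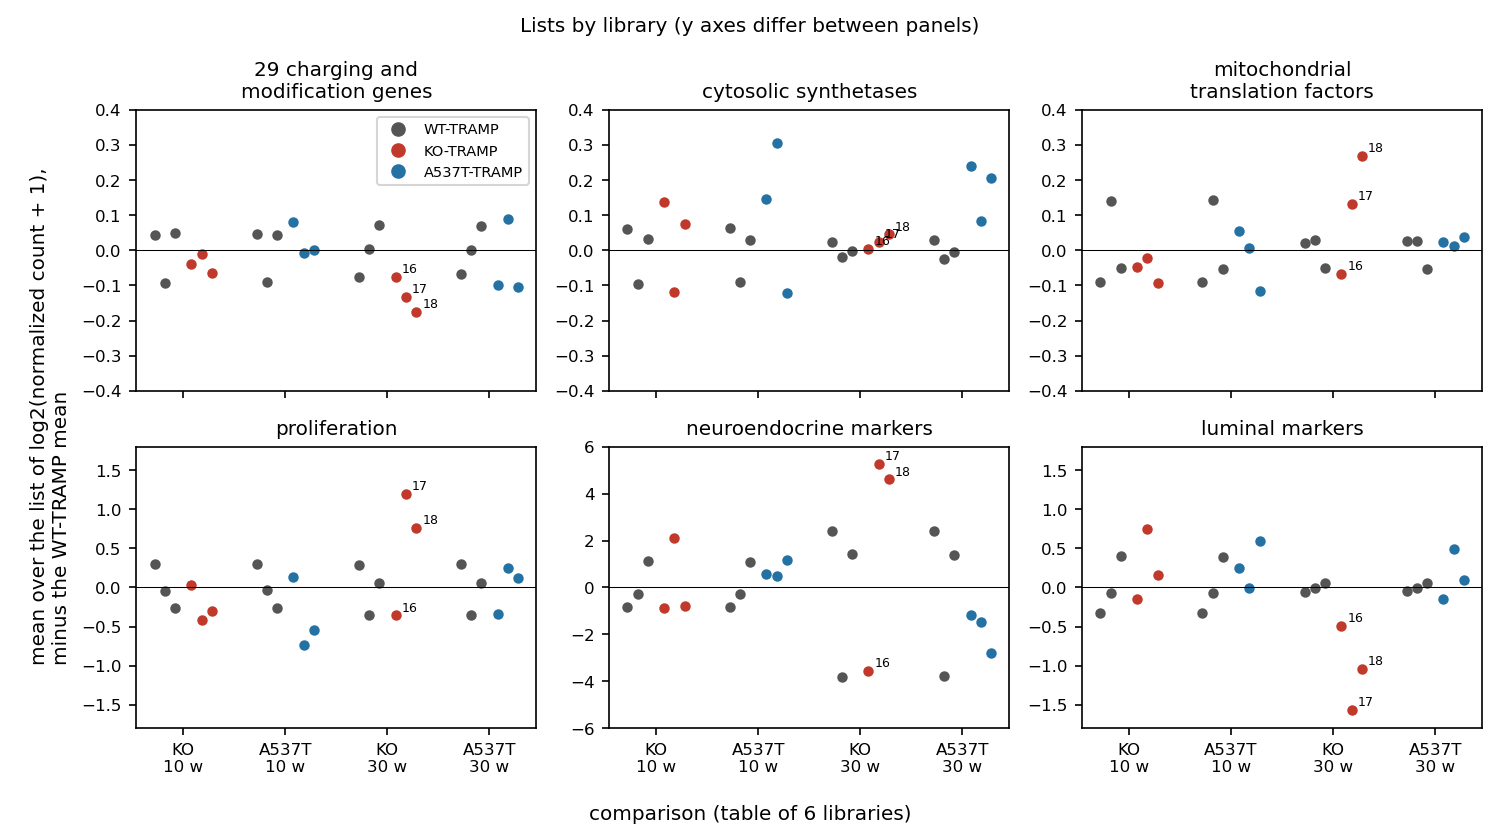
Mean over the genes of a list of log2(normalized count + 1) minus the WT-TRAMP mean of the same table, with 1 point per library in each of the 4 tables and 1 panel per list, the y axes differing between panels. Numbers mark the KO-TRAMP libraries of 30 weeks. For the 29 members every library stays between −0.18 and 0.09, while the proliferation list spans −0.73 to 1.20.

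In A537T-TRAMP at 30 weeks 15 members lay above 0 and 14 below, with a median of 0.0029 against 0.00025 over all genes. Fars2, the phenylalanyl-tRNA synthetase (ENSMUSG00000021420.13, chr13:36117412-36726280, plus strand), had 227, 260.1 and 244 in WT-TRAMP and 212, 199 and 176 in A537T-TRAMP. All 3 A537T-TRAMP libraries lay below all controls, and the log2 fold change was −0.31 (SE 0.13, interval −0.62 to −0.01, limma adjusted p = 0.684). Fars2 overlaps Gm48766, Gm46409 and Gm26395 on its own strand. Wars2 had 50.6, 67.3 and 54.4 against 69.6, 73.9 and 89.7, every A537T-TRAMP library above every control (log2 fold change 0.43, interval −0.05 to 0.92, limma adjusted p = 0.706). These were the 2 members without overlap, where 13.4% of all genes tested were. Pars2, the prolyl-tRNA synthetase, had 119, 71.7 and 102 against 44.2, 85.9 and 89.7, library 13 alone lying below the controls (−0.45, interval −1.22 to 0.32). Vars2 spread widely within the line, at 227, 426 and 159, around controls of 326, 291 and 375. Among the members above 0, Tars2 at 0.10 (−0.17 to 0.36) and Yrdc at 0.11 (−0.29 to 0.51) had the smallest p after Wars2.

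Whether an effect changed with age was tested as the effect at 30 weeks minus that at 10 weeks, over 12 libraries with each table on its own intercept. No member and no other gene passed the adjusted threshold for either line (0% of 16431 genes tested for KO-TRAMP and 0% of 15941 for A537T-TRAMP). At an unadjusted p under 0.05 limma gave 4 members for KO-TRAMP, where 13.1% of all genes tested did so, and 0 for A537T-TRAMP, where 6.36% did. edgeR called 0 genes for either line. DESeq2 called 389 of 16431 genes for KO-TRAMP and 49 of 15941 for A537T-TRAMP, and no member. The KO-TRAMP effect on Wars2 was higher at 30 than at 10 weeks by 1.16 on the log2 scale (interval 0.31 to 2.00, limma adjusted p = 0.296), from −0.65 to 0.51. For Yrdc the difference was 0.74 (0.05 to 1.42, adjusted p = 0.362). Vars2 moved the other way, by −0.86 (−1.48 to −0.24, adjusted p = 0.295), as did Nars2, by −0.63 (−1.21 to −0.05, adjusted p = 0.362). Without library 16, Wars2 (1.42, limma adjusted p = 0.0277) and Yrdc (0.98, limma adjusted p = 0.0357) were called, in a setting that called 11.8% of all genes tested. In A537T-TRAMP the same difference was 0.86 (−0.02 to 1.74) for Wars2 and −1.07 (−2.19 to 0.05) for Vars2, neither past the test. Both lines were set against the same WT-TRAMP libraries, so their values stand side by side here and are not independent of each other.

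**Figure D4:**
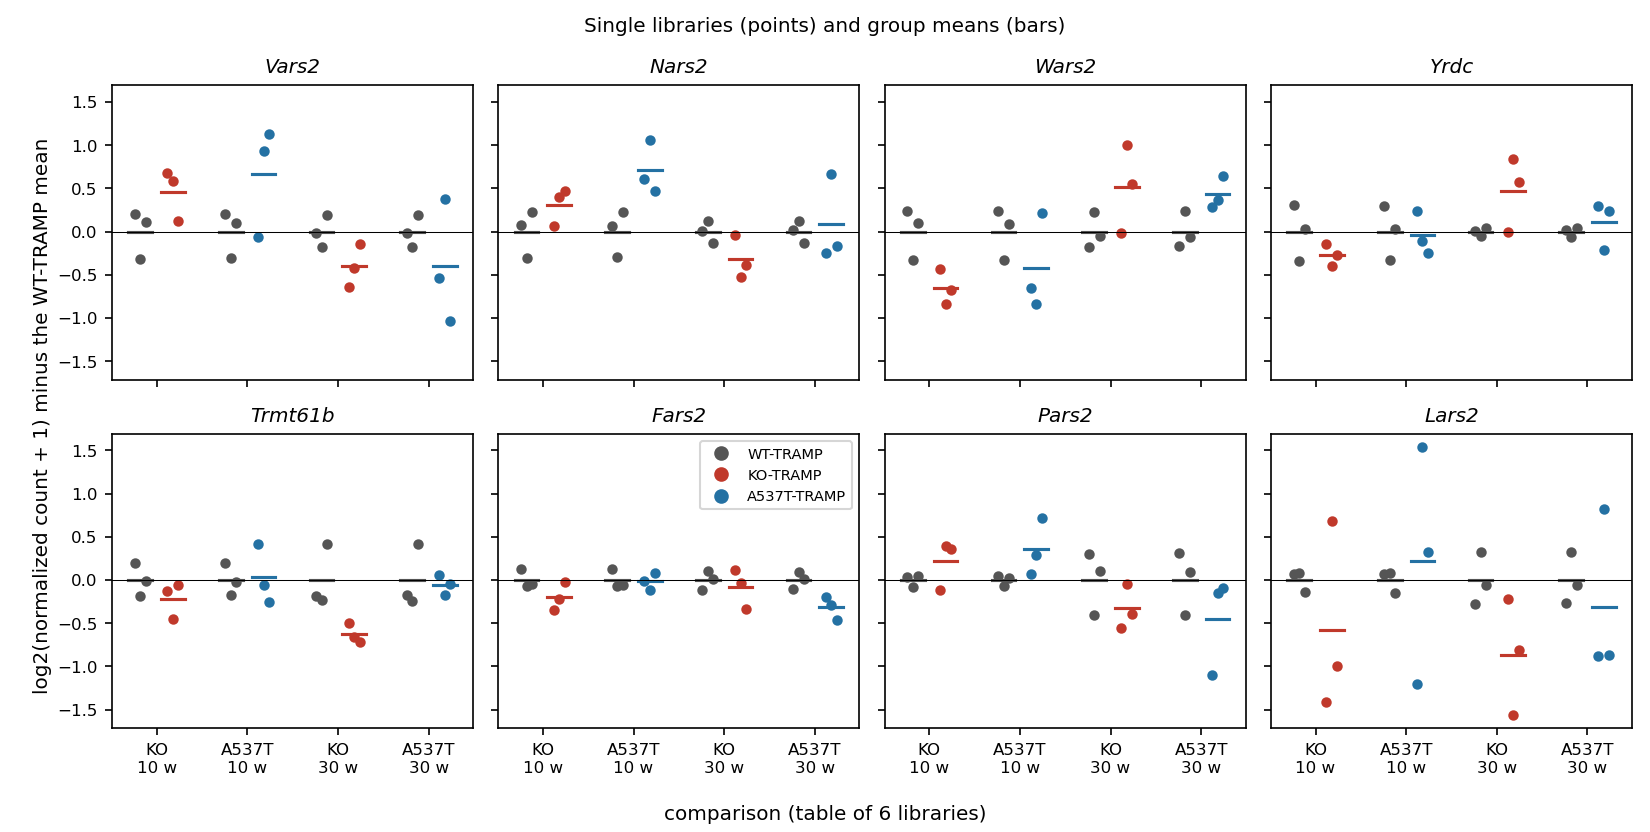
Values of 8 named members in single libraries (points) and group means (bars), as log2(normalized count + 1) minus the WT-TRAMP mean of the same table, for the 4 tables of 6 libraries. Wars2 lies below the controls in KO-TRAMP at 10 weeks and above or among them at 30 weeks, and Lars2 has the widest spread.

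Lars2 varied more between mice than any other member. Its SD on the log2 scale, pooled over the 4 tables and the groups within them, was 0.77, against 0.44 for Cdk5rap1, which adds a methylthio group next to the anticodon, 0.40 for Vars2 and 0.13 for Trit1, the least variable. At 10 weeks the normalized counts of Lars2 were 1640.3, 1653 and 1419 in WT-TRAMP, 589.8, 2514 and 786 in KO-TRAMP and, in the other table, 619, 4134 and 1786 in A537T-TRAMP. At 30 weeks A537T-TRAMP had 569, 1859 and 573 against controls of 873, 1314 and 1008. In 3 of the 4 comparisons, all but that of KO-TRAMP at 30 weeks, mutant libraries lay both above and below every control. The log2 fold changes (−0.57, 0.22, −0.87 and −0.31) had intervals reaching from −1.72 to 1.63.

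Lars2 was followed most closely by both mitochondrial ribosomal RNAs and a transcript that overlaps a ribosomal RNA gene. This comparison was made after the spread of Lars2 had been seen. Among the 16050 genes compared, over the 18 libraries and on log2(RPM + 1), where RPM are reads scaled to the same library total, the 3 with the highest correlation were Gm42418 (0.960), a transcript on chromosome 17 that overlaps an annotated ribosomal RNA gene, and the mitochondrial ribosomal RNAs mt-Rnr1 (0.957) and mt-Rnr2 (0.950). Fam222b (0.917), the overlapping ribosomal gene CT010467.1 (0.907) and mt-Nd5 (0.897) came next. For mt-Rnr1, Pearson's r was 0.957 and Spearman's rho 0.944 (permutation p = 1e-05 for both, the smallest 100000 permutations can give, and 0.00029 after Benjamini-Hochberg adjustment over 87 relations). It was 0.930 without the 2 libraries farthest from the median (17 and 5), 0.928 at 10 weeks, 0.975 at 30 weeks and 0.967 within the groups. The adjustment covers the 87 relations and not the 16050 genes compared, among which Gm42418, mt-Rnr1 and mt-Rnr2 ranked highest. The p-values for Lars2 therefore do not account for a choice among all genes. The permutations exchanged all 18 libraries across lines and ages. Lars2 ran from 33.9 to 323 RPM and mt-Rnr1 from 1539 to 10067, a 9.54-fold and a 6.54-fold range, while Lars2 reads per 1000 mt-Rnr1 reads ran only from 15.8 to 32.1, a 2.04-fold range. In KO-TRAMP at 30 weeks that ratio was 21.2 to 22.4, overlapping 22.2 to 22.8 in WT-TRAMP. At 10 weeks it was 15.8 to 29.6 in KO-TRAMP, 26.1 to 32.1 in A537T-TRAMP and 23.5 to 27.9 in WT-TRAMP, and A537T-TRAMP at 30 weeks had 20.2 to 31.01. The longest run of bases that any of the 9 annotated Lars2 transcripts shared with mt-Rnr1 was 14, and with mt-Rnr2 and Gm42418 it was 12. Only exact runs against these genes were searched, not CT010467.1 and not inexact matches. Whether reads of ribosomal RNA were assigned to Lars2 was not tested. Why Lars2 went with ribosomal RNA in these libraries was not tested.

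Several members ran the other way. The correlation of Yrdc with Gm42418 was −0.815 (Spearman −0.837, permutation p = 2e-05 for both, 0.00043 adjusted over the 87 relations), −0.715 without the 2 libraries farthest from the median, −0.705 at 10 weeks and −0.917 at 30 weeks. With mt-Rnr1 it was −0.745 (Spearman −0.754, permutation p = 0.00032 and 0.00048, adjusted 0.00493 and 0.00835), −0.560 without the same pair of libraries, −0.546 at 10 weeks and −0.905 at 30 weeks. With mt-Rnr2 it was −0.668 (Spearman −0.734, permutation p adjusted to 0.0182 and 0.0113), −0.509 without that pair, −0.562 at 10 weeks and −0.835 at 30 weeks. Yars2, the tyrosyl-tRNA synthetase, also passed on both measures with Gm42418, at −0.720 (Spearman −0.703, permutation p adjusted to 0.00957 and 0.0186), and had −0.653 without the pair, −0.701 at 10 weeks and −0.705 at 30 weeks.

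The other inverse relations that passed did so on Pearson's r and not on Spearman's rho. Osgepl1 gave −0.740 with Gm42418 (Spearman −0.521, permutation p adjusted to 0.00493 and 0.192), −0.498 without the pair, −0.719 at 10 weeks and −0.680 at 30 weeks. It gave −0.695 with mt-Rnr1 and −0.727 with mt-Rnr2 (permutation p adjusted to 0.0125 and 0.00708 for r, and 0.0885 for rho in both), where the values without the pair were −0.404 and −0.484, those at 10 weeks −0.584 and −0.626, and those at 30 weeks −0.587 and −0.525. Yars2 gave −0.611 with mt-Rnr1 (Spearman −0.552, permutation p adjusted to 0.0481 and 0.147), −0.464 without the pair, −0.461 at 10 weeks and −0.742 at 30 weeks. For the arginyl-tRNA synthetase Rars2 the correlation with Gm42418 was −0.652 (Spearman −0.443, permutation p adjusted to 0.0259 and 0.280), −0.496 without the pair, −0.773 at 10 weeks and −0.621 at 30 weeks. For the methionyl-tRNA synthetase Mars2 it was −0.611 (Spearman −0.354, permutation p adjusted to 0.0434 and 0.453), −0.540 without the pair, −0.843 at 10 weeks and −0.282 at 30 weeks. These are relations across mice of 6 groups that share libraries and scaling.

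**Figure D5:**
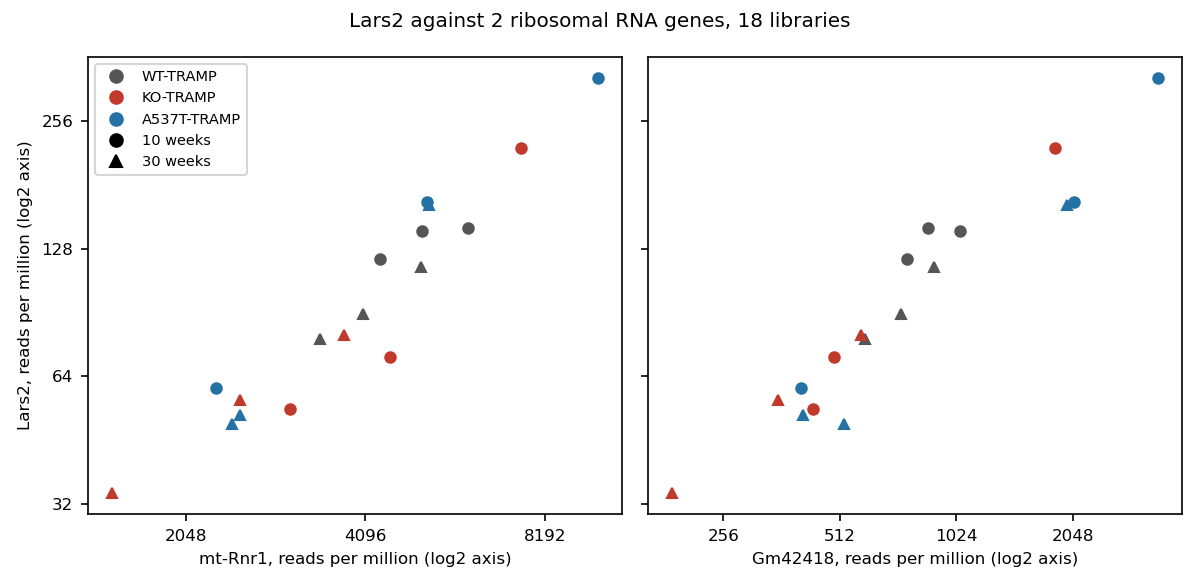
RPM of Lars2 against those of mt-Rnr1 (left) and Gm42418 (right) in the 18 libraries, on log2 axes, with 1 point per library coloured by line and shaped by age. Lars2 rises with both genes (r = 0.957 with mt-Rnr1 and 0.960 with Gm42418 on the log2 scale), and the points of the lines interleave.

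The neighbouring steps of the pathway were counted from lists of named genes in the same fits, and limma called none of their genes. tRNA processing and other modification (14 genes, Elac2 included) had 4 and 9 above 0 in KO-TRAMP, at the younger and the older age (medians −0.10 and 0.05) and 5 and 10 in A537T-TRAMP (medians −0.05 and 0.04). The 12 mitochondrial translation factors centred on −0.04 and 0.08 in KO-TRAMP and on −0.05 and 0.03 in A537T-TRAMP (medians), and the elongation factor gene Gfm1 differed by 0.38 in KO-TRAMP at 30 weeks (limma adjusted p = 0.364). At that age and in that line, 9 of the 14 processing genes and 7 of the 12 translation factors lay above 0 where 6 of the 29 members did, and 11 of 12 genes of mitochondrial content lay above 0 (median 0.07). The chaperonin Hspd1 differed by 0.33 there (limma adjusted p = 0.327). Cytosolic synthetases had 10 of 18 above 0 in KO-TRAMP at 30 weeks (median 0.02) and 16 of 18 in A537T-TRAMP at 30 weeks (median 0.17, 4 at an unadjusted p under 0.05), among them Wars at 0.29 (limma adjusted p = 0.580). In that comparison the mitochondrial Wars2 differed by 0.43 and the 16 mitochondrial synthetases had 9 above 0 with a median of 0.02. The amino acid response, whose regulator Atf4 is a transcription factor, had 12 of 13 measured genes above 0 in A537T-TRAMP at both ages (medians 0.21 and 0.28). In KO-TRAMP 8 and 5 of 13 were above 0 (medians 0.11 and −0.10). Of all genes tested, 49.1% and 50.0% lay above 0 in A537T-TRAMP and 48.9% and 50.9% in KO-TRAMP. Means over all 15 genes of this list in single libraries at 10 weeks were 0.044 to 1.08 in A537T-TRAMP, overlapping −0.047 to 0.084 in its controls. In KO-TRAMP they were 0.088 to 0.161, above −0.046 to 0.087 in the controls. The enzyme Mthfd2 of this list, which acts in mitochondrial folate metabolism, differed by 0.99 in A537T-TRAMP at 10 weeks (limma adjusted p = 0.600). Ppargc1a, a coactivator of genes for mitochondria, differed by −0.64 and −0.60 in A537T-TRAMP at 10 and 30 weeks (limma adjusted p = 0.600 and 0.357). None of these counts was tested as a set.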

How the data were processed

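Total RNA was sequenced from prostate lobes of 18 mice. The deposited tables hold a normalized signal per gene: per the labels and the study's methods the authors trimmed reads with Trim Galore 0.4.1 and cutadapt 1.18, aligned them with STAR 2.7.3a to GRCm38.p6, estimated gene counts with Salmon and divided them by DESeq2 1.26 size factors. There were 4 tables of 6 libraries. Columns carry a library number but no genotype, so columns present in both tables of an age were taken as WT-TRAMP and the others as the line a table is named for. WT-TRAMP estimates differ slightly between the tables (30.9% to 37.6% of values identical in whole reads), and lines were compared only within a table. Every value was a whole multiple of one step per library (100% within 0.01), which gave back 9380174 to 14830104 reads per library, and the intervals given cover the spread between 3 mice a group.

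limma 3.58.1 (R 4.3.3) was fitted to log2(normalized count + 1) of the genes whose mean was 10 or more, with an intensity trend, two-sided, Benjamini-Hochberg adjusted over all genes tested, threshold 0.05; log2 fold changes are on this scale and understate the change of low genes. Nothing names separate litters or cultures, so p-values measure the spread between these mice. Intervals are 95%. For each comparison the 3 members with the smallest p in each direction are named with full values; a few more (Osgepl1, Pus1, Trit1, Mtfmt and Cdk5rap1) were named after their values were seen. Members and lists were chosen with earlier results of these data known. edgeR 4.0.16 and DESeq2 1.42.0 on the recovered reads, other pseudocounts, filters, scalings and weights, and leaving out each library were alternatives. The fitting scripts were tested on simulated data. Levels per kilobase used GENCODE exon lengths on GRCm38, and promoters were RefSeq's on GRCm38.p6. Mtfmt, Osgepl1 and Cars2 share 8.56%, 6.28% and 3.37% of their 31-base words with another gene.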

Additional observations from a re-analysis of the deposited data

Results flagged for a closer look

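For 4 members every library of a line lay on one side of the mean normalized count of WT-TRAMP at 10 weeks and every library on the other side at 30 weeks. In KO-TRAMP these were Hars2, the histidyl-tRNA synthetase, with log2 fold changes of 0.24 and −0.19, Nars2 with 0.31 and −0.31, and Vars2 with 0.46 and −0.40. In A537T-TRAMP it was Pars2, with 0.36 and −0.45. The share of all genes that switched sides in this way is not given here, so these 4 members are described without a background. The difference between the ages did not pass limma's test for any of them: its adjusted p was 0.542 for Hars2, 0.362 for Nars2, 0.295 for Vars2 and 0.721 for Pars2. Most of these libraries overlapped the controls: Hars2 had 286, 199 and 297 in KO-TRAMP at 30 weeks against 217, 317 and 365 in WT-TRAMP. Groups of 3 libraries were too small for a check of single outlying values.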

How the results depend on the processing

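No paired analysis was possible because the columns carry no replicate numbers. Directions changed in some settings, among them those of Mto1 in KO-TRAMP and of the member median in A537T-TRAMP, both at 30 weeks. That median was 0.0029 in the main fit, and the values under other settings are given below. The count of members called stayed at 0 in all 6 comparisons under pseudocounts of 0.5 and 5, no filter, a minimum mean of 50, TMM scaling, quantile normalization, edgeR and DESeq2, and in the 4 comparisons with WT-TRAMP under robust empirical Bayes, which was not run for the differences between ages. Array weights, which downweight variable libraries, called 19 members in KO-TRAMP at 30 weeks, 6 in A537T-TRAMP at 30 weeks, 14 for the difference between ages in KO-TRAMP and 1 (Vars2) for that in A537T-TRAMP. The same setting called 10748 of 16900 genes tested in KO-TRAMP and 3388 of 16261 in A537T-TRAMP at 30 weeks, and its estimate did not converge in either. For the differences between ages it called 5188 of 16431 genes in KO-TRAMP and 1645 of 15941 in A537T-TRAMP. In KO-TRAMP at 30 weeks it gave library 18 a weight of 170.3 against 0.097 and 0.161 for libraries 16 and 17, so the calls of that comparison rest on 1 mutant library. With these weights the log2 fold change of Mto1, below 0 in the main fit of that comparison, was 0.25. Leaving out each library gave 0 to 2 members called in KO-TRAMP at 30 weeks and 0 to 2 for its difference between ages, the 2 without library 16 in both. Without it limma called 3064 of all genes in KO-TRAMP at 30 weeks, against 36 with it, and 1944 against 0 for the difference between ages. The median log2 fold change of the members moved to −0.21 in KO-TRAMP at 30 weeks under quantile normalization, and in A537T-TRAMP at 30 weeks to −0.089 under array weights and, leaving out each library, to between −0.059 (without library 10) and 0.073 (without library 12). For named members 374 values kept their side of the threshold and 10 passed it. Over all genes in KO-TRAMP, DESeq2 called 81 at the younger and 805 at the older age, limma 2 and 36, and edgeR 0 and 15. In A537T-TRAMP, DESeq2 called 148 and 165, limma 1 and 0, and edgeR 0 at both ages. Depth left Wars2 and Pars2 with 34 to 192 and 41 to 141 reads a library, against 503 to 3740 for Lars2.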
